A study of Mus musculus with 8 samples.

Results

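The genes described here encode actin itself and proteins that hold actin monomers, cut and rebuild actin filaments, or line their sides. They are the beta-actin gene Actb, the gamma-actin gene Actg1, Tmsb10, Tmsb4x, Pfn1, Cfl1, Arpc2, Capg, Tagln2 and Tpm4. They were chosen by name, as all non-control probe sets that the array annotation gives to exactly 1 gene symbol, that symbol being on the list. The list was drawn up with earlier results of these data known. This gave 13 probe sets for 10 genes, out of 12422 non-control probe sets and 8251 genes. A further Tpm4 probe set also maps to another symbol and was left out.

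RNA was hybridised to 8 Affymetrix mouse arrays, 1 sample per array, from cells labelled as endothelial and from the mouse aorta. The confluent group (4 arrays) came from a mature monolayer that had filled the dish, and the subconfluent group (4 arrays) from growing cultures below 50% confluency. Every sample started from the same number of cells. The labels give no genotype, strain, age or treatment for either group, and they do not say whether the cells were primary or a line. Replicates in both groups are numbered 1 to 4 as experiments. Beyond that number nothing in the labels says how cultures were made, so p-values measure the spread between these arrays. Where the replicate number is a block, p-values measure the spread of the differences between same-numbered arrays. The comparison asks how expression differs between cells with free space around them and cells in a closed layer.

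Actin exists as single subunits and as filaments that grow at one end and shrink at the other. Thymosins store monomers, profilin loads them onto growing ends, the Arp2/3 complex starts branches, cofilin severs old filaments, capping proteins stop growth, and tropomyosins and transgelins bind along the filament. In endothelial cells this cycle drives the spreading and crawling of cells at a free edge, while a closed monolayer holds a cortical actin ring at its junctions. Free monomers also bind the coactivator MRTF, which with the transcription factor SRF switches on actin genes.

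Values are signals, 1 linear number per probe set, scaled by the authors on each array to a target of 500. The scale factors ran from 3.05 to 13.3 and were highest on replicate 2 of both groups. Of the 15 endothelial markers with a probe set, only Eng averaged 200 or more over the arrays, as 56.6% of all genes did. Cdh5, Tek, Tie1, Vwf, Icam2, Cldn5 and Nos3 lay under 50, so the labelled cell type was not borne out by its defining markers. Of 13 fibroblast and pericyte markers 8 reached 200, with a summed signal of 54713 to 80718 on confluent and 26442 to 40130 on subconfluent arrays. Most of that sum was Col1a1, Col1a2 and Dcn. Their means were 20958, 19156 and 14708 on confluent and 16188, 9509 and 3476 on subconfluent arrays. Of the 8 markers that reached 200, 4 fell in subconfluent cells, against 4.06% of all tested probe sets. In the paired fit described next 6 of the 8 fell, against 11.3%. The part of these markers in the results was not tested. In bulk RNA, fewer cells of a type and less RNA per cell cannot be told apart. Arrays with the same number deviated together from their group means, so each difference is given without a block and, where it alters a call, from a paired fit in which the replicate number was a block.

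Without the pairing, 0 of the 10 genes passed limma's test at an adjusted p under 0.05, where 6.81% of all 6007 tested probe sets did (2.75% higher and 4.06% lower), and 3 of the 10 had an unadjusted p under 0.05, as did 1558 of the 6007. In the paired fit Cfl1, Tagln2 and Tmsb10 rose in subconfluent cells. Actb fell by its gene probe sets, but its sense control probe sets, described below, did not pass in either direction. The paired calls make 3 of 10 genes higher, against 9.94% of all tested probe sets, and 1 of 10 lower, against 11.3%. In either direction they make 4 of 10, against 21.2%. All 4 pairs were higher for 3 genes, against 20.7% of probe sets, and lower for 2, Actb and Capg, against 22.1%. Each of these 3 rose about as much, between 1.44-fold and 1.46-fold. The median log2 difference of the 10 genes was 0.21, against 0.01 over all tested probe sets, and 8 of the 10 were positive. Since the genes were chosen with earlier results of these data known, these values are a description and no test of the list. All 10 passed the filter, an average signal of 200 or more, while 2 of the 3 Capg probe sets did not.

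**Figure D1:**
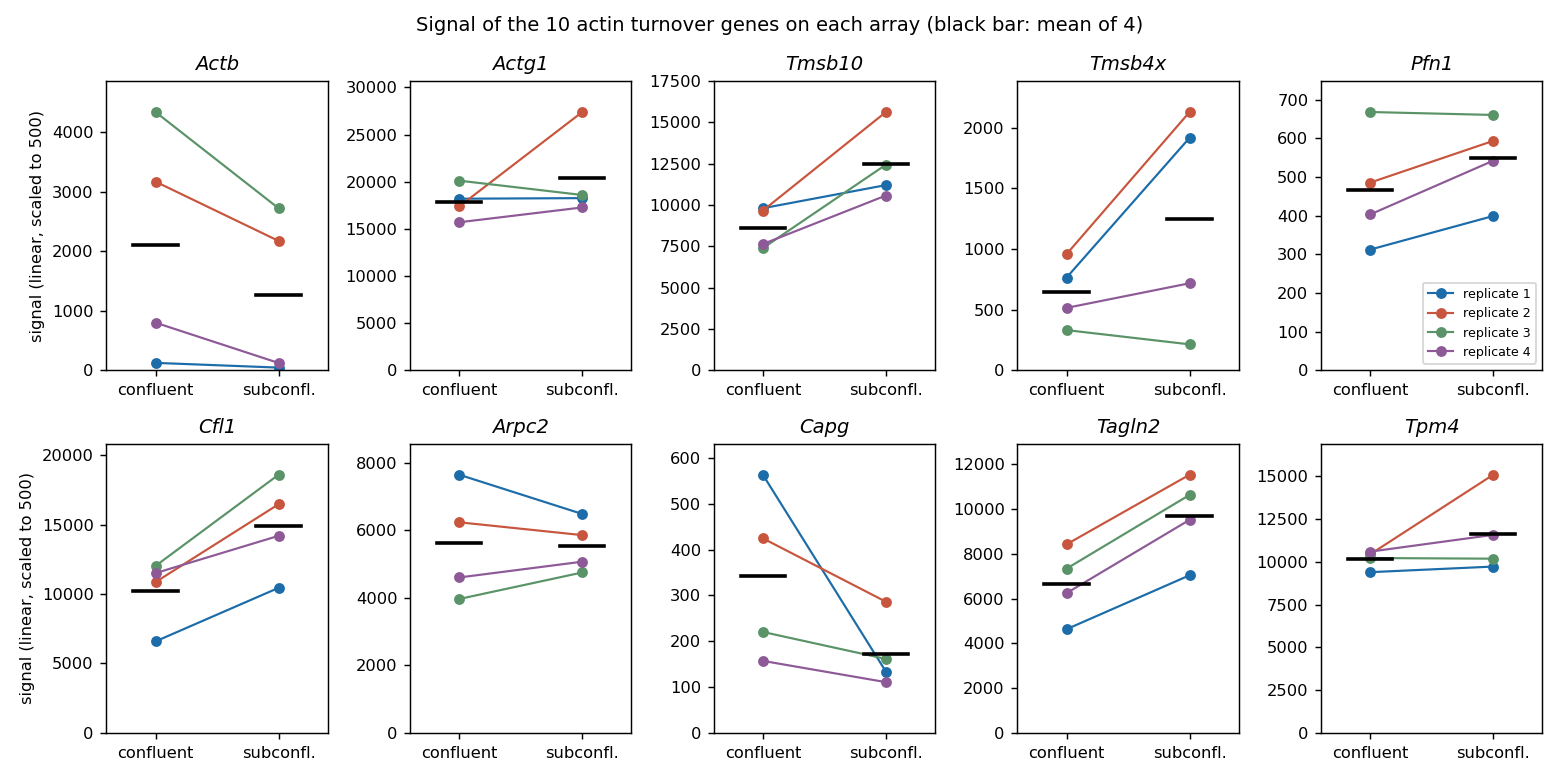
Signal (linear, scaled to a target of 500, axes from 0) of the 10 genes on the 4 confluent and 4 subconfluent arrays. Lines join arrays of the same replicate number and black bars are means of 4. All 4 lines climb for Tmsb10, Cfl1 and Tagln2, all 4 descend for Actb and Capg, and the single arrays of a gene lie far apart for Actb and Tmsb4x.

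Actg1, 1 of the pair of cytoplasmic actins found in nearly all cells, stayed near the same level on 7 of 8 arrays. Its signals on confluent replicates 1 to 4 were 18196, 17375, 20114 and 15698, and on subconfluent replicates 1 to 4 they were 18261, 27397, 18592 and 17271. The groups overlapped, and subconfluent replicate 2 stood above all other arrays. The log2 difference was 0.17 ± 0.16 (SE, n = 4 per group), with a limma adjusted p = 0.563 (0.386 in the paired fit). Without subconfluent replicate 2 it was 0.02, and without confluent replicate 4 it was 0.11. Chip lot A, with 1 array of each group, gave 0.01, and lot C, with 1 confluent and 2 subconfluent arrays, gave -0.17. The sign for Actg1 thus differed between these lots, but the lot A value was near 0 and each value rests on a single confluent array.

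The Actg1 promoter is shown because it was the only member promoter in the RefSeq table (build GRCm38.p6) with a CArG box, the site that SRF binds. The table held promoters of 9 of the 10 genes, each of 250 bases before and 50 after the start site. Actb had no entry. Over all 32851 promoters of that length 1.63% held a CArG box. The 150 bases just before the Actg1 start lie at chr11:120348496-120348645 on the minus strand, with the box in capitals, beginning 90 bases before the start.
Actg1: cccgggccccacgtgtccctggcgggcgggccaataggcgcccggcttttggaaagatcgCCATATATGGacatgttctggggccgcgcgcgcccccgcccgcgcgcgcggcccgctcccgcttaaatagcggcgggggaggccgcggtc
A match is a description of the letters and no evidence of binding here.

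Actb, the other cytoplasmic actin, was read by 2 gene probe sets that differed widely between arrays. The first, whose name ends in f_at, had signals of 123, 3171, 4343 and 800 on confluent replicates 1 to 4 and of 43.9, 2175, 2723 and 122 on subconfluent replicates 1 to 4. It was low on replicates 1 and 4 and high on replicates 2 and 3 of both groups, a 98.9-fold range over the 8 arrays, and the groups overlapped. The other, ending in s_at, showed the same order, from 133 to 3739. Such endings mark probes that can also match related sequences, so signal from other actins cannot be told apart here.

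The log2 difference of Actb was -1.10 ± 1.22 (SE) by the first probe set and -1.06 ± 0.85 by the other, far inside the spread between arrays (limma adjusted p = 0.632 and 0.478). Leaving out single arrays moved the unpaired value of the first probe set from -0.24 (without subconfluent replicate 1) to -2.03 (without confluent replicate 1), and only leaving out confluent replicate 4 moved it by less than 1.5 times (-1.26). Within each pair the subconfluent array was lower, 4 of 4 times for both probe sets, and both fell in the paired fit, with SE of 0.27 and 0.23 (limma adjusted p = 0.0222 and 0.0141). The first probe set lost that call without pair 1 (0.0665) or pair 3 (0.0508). Pair 4 alone had a difference of -2.30, and without it the value was -0.69. Lot A, which is pair 1, gave -0.88. Lot C, which sets subconfluent replicates 3 and 4 against confluent replicate 3, gave -2.67.

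The array also carries control probe sets for Actb, which are not part of the list, at the 3′ end, the middle and the 5′ end of the transcript. These read from 23117 to 57713 and did not pass in either direction. Their middle probe set had signals of 33873, 37678, 25777 and 27324 on confluent and 30471, 57713, 25250 and 31238 on subconfluent replicates 1 to 4. When controls were tested along with the genes (chosen after the data were seen), the log2 differences were 0.12, 0.16 and 0.16 for the 3′, middle and 5′ sets, with limma adjusted p = 0.815, 0.737 and 0.713 (0.566, 0.420 and 0.444 in the paired fit). The fall of the gene probe sets was thus not seen in the control probe sets of the same gene; the difference between them was not tested. Signals of the antisense control sets for Actb, which should find no transcript, had medians of 54.9 to 1613 per array, and the deviations of the first gene probe set from its group means correlated with theirs (r = 0.90 over 8 arrays) and with the log2 scale factor (r = 0.75), as a description over arrays that share pairs. On confluent replicate 1 and subconfluent replicates 1 and 4 the first gene probe set read below the antisense median (123, 43.9 and 122 against 125, 54.9 and 238). On the other arrays it read above it. The other gene probe set was above the antisense median on those arrays (309, 133 and 290), but not on subconfluent replicate 2 (1452 against 1613). The part of the antisense signal and of the scale factor in the fall was not tested.

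**Figure D2:**
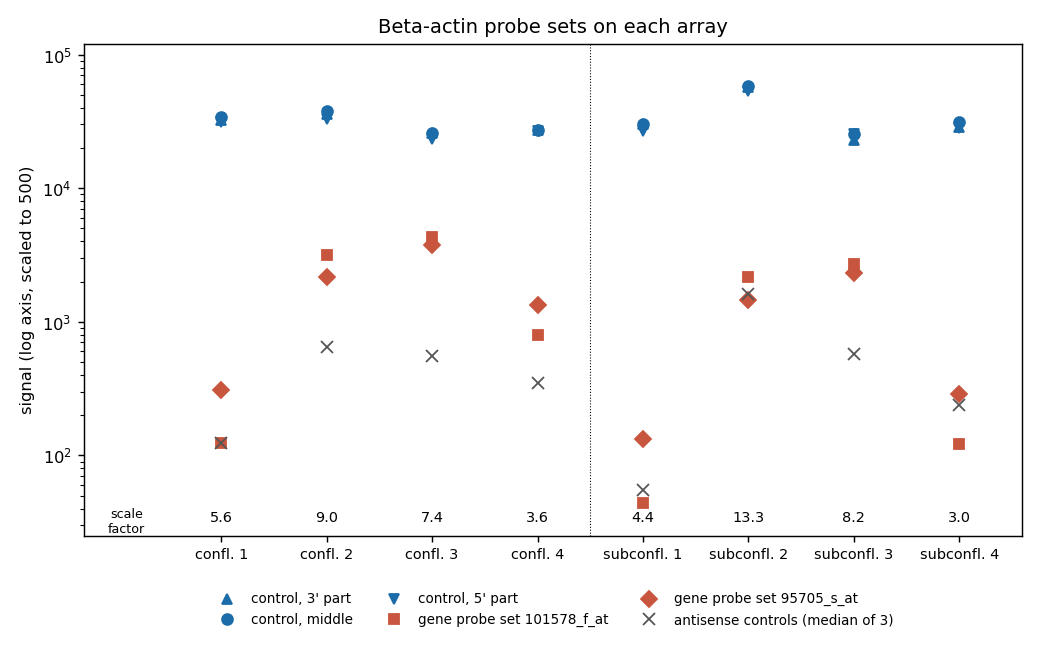
Signal (log axis, scaled to a target of 500) of 3 sense control probe sets (blue), 2 gene probe sets (red) and the median of 3 antisense controls (grey crosses) for Actb on each of the 8 arrays, with each array's scale factor printed above its label. The blue points stay between 23117 and 57713, while the red points range from 43.9 to 4343 and are lowest on replicate 1 of both groups.

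The ratio of the 3′ to the 5′ control of Actb, a measure of RNA integrity, ran from 0.913 to 1.13 over the arrays. Its mean was 1.06 ± 0.0469 for confluent arrays and 1.03 ± 0.0909 for subconfluent ones (SD, n = 4; two-sided exact permutation p = 0.629, where the smallest possible is 0.0286). For Gapdh the ratio was 0.823 ± 0.0299 and 0.818 ± 0.0135 (exact permutation p = 0.743).

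Among the proteins that hold monomers, Tmsb10 was the member whose groups did not overlap. Tmsb10, a small peptide that sequesters actin monomers, had signals of 9803, 9660, 7389 and 7635 on confluent and of 11203, 15626, 12439 and 10572 on subconfluent replicates 1 to 4. Every subconfluent array stood above every confluent one, as for 8.34% of all tested probe sets (the reverse held for 8.54% and for 0 members). The log2 difference was 0.52 ± 0.16 (SE), 1.44-fold, with a limma adjusted p = 0.0759. In the paired fit Tmsb10 rose (SE 0.12, limma adjusted p = 0.0167), and it was higher in 4 of 4 pairs. That call ended without pair 3 (0.0882) or pair 4 (0.0606). Lot A gave 0.19 and lot C 0.63. With quantile normalization and no block the value was 0.47 and passed (0.0485).

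Tmsb4x, the related and better known monomer store, varied 9.98-fold over the arrays. Its signals were 764, 957, 331 and 514 on confluent and 1917, 2130, 213 and 717 on subconfluent replicates 1 to 4. Replicates 1 and 2 of the subconfluent group were above all confluent arrays, replicate 3 was below them all, and the groups overlapped. The log2 difference was 0.57 ± 0.59 (SE), with a limma adjusted p = 0.596, or 0.162 in the paired fit. Pair 3 ran the other way, at -0.53 against 1.27, 1.11 and 0.44 in pairs 1, 2 and 4, and without it the paired difference was 0.94 and passed (0.0306). The unpaired difference was 0.23, 0.18 and 1.2 without subconfluent replicate 1, 2 or 3, and 0.32 without confluent replicate 3.

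Pfn1, profilin, hands monomers to growing filament ends. It had signals of 312, 485, 668 and 403 on confluent and of 399, 593, 660 and 542 on subconfluent replicates 1 to 4, which overlapped. The difference was 0.24 ± 0.23 (SE, limma adjusted p = 0.568), positive in 3 of 4 pairs, and lot C gave -0.15. Without confluent replicate 1 or 3 it was 0.08 or 0.41, and without subconfluent replicate 1 or 3 it was 0.37 or 0.15.

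Cfl1, cofilin, severs aged filaments and returns subunits to the pool. Its signals were 6591, 10859, 12023 and 11507 on confluent and 10444, 16465, 18591 and 14190 on subconfluent replicates 1 to 4. Of the subconfluent arrays 3 exceeded all confluent ones, and replicate 1 was the lowest of its group in both. The log2 difference was 0.55 ± 0.23 (SE), 1.46-fold, with a limma adjusted p = 0.156. Within pairs it was 0.66, 0.60, 0.63 and 0.30, and in the paired fit Cfl1 rose (SE 0.10, limma adjusted p = 0.00867). The call ended without pair 3 (0.0508). Lot A, which is pair 1 again, gave 0.66 and lot C 0.43, and without confluent replicate 1 the unpaired difference was 0.35.

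Arpc2, a core subunit of the Arp2/3 complex that starts filament branches, did not differ beyond its spread. The signals were 7643, 6235, 3964 and 4601 on confluent and 6481, 5855, 4749 and 5068 on subconfluent replicates 1 to 4. Both groups held the same order, highest on replicate 1 and lowest on replicate 3. The difference was 0.02 ± 0.21 (SE, limma adjusted p = 0.973; SE 0.12 in the paired fit), and its sign turned with quantile normalization. It was positive in 2 of 4 pairs, and lot A gave -0.24 and lot C 0.30.

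Capg caps filament ends in response to calcium and is abundant in macrophages. Its brightest probe set had signals of 563, 424, 220 and 157 on confluent and 134, 286, 161 and 111 on subconfluent replicates 1 to 4. The subconfluent array was lower in 4 of 4 pairs, but the groups overlapped. Without confluent replicate 1 the difference was -0.48. The difference was -0.74 ± 0.35 (SE, limma adjusted p = 0.212; 0.0690 in the paired fit), -1.74 in pair 1 and between -0.50 and -0.35 in the others. Both dimmer Capg probe sets had means of 108 and 110 over the 8 arrays and were not tested. Their pair differences ran from -0.68 to 0.79. Of 14 macrophage markers 2 reached a mean signal of 200, Adgre1, Lyz2, Itgam, Ptprc, Tyrobp, Aif1 and Mrc1 lay under 50, and the list's summed signal was 3126 to 4336 on confluent and 2270 to 2957 on subconfluent arrays. Most of that sum was Cd14, with a mean of 2541 on confluent and 1521 on subconfluent arrays, which fell in the paired fit (-0.70, limma adjusted p = 0.0228; 0.0563 without a block). The other tested marker, Laptm5, stood at 0.27 (0.417 without a block). The part of these markers in Capg was not tested.

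Tagln2, transgelin-2, a calponin-related protein that binds along actin filaments, gave the most even difference of the 10 genes. Its signals were 4631, 8420, 7335 and 6241 on confluent and 7039, 11530, 10628 and 9515 on subconfluent replicates 1 to 4. In both groups the order was replicate 2, 3, 4 and 1, and 3 subconfluent arrays exceeded all confluent ones. The log2 difference was 0.55 ± 0.21 (SE), 1.46-fold, with a limma adjusted p = 0.132. The pair differences of 0.60, 0.45, 0.53 and 0.60 lay close together. In the paired fit Tagln2 rose (SE 0.10, limma adjusted p = 0.00754), and it kept the call without each of the 4 pairs in turn (0.0122 to 0.0437). Lot A, which is pair 1 again, gave 0.60 and lot C 0.45.

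The Tagln2 promoter is shown because it held 2 copies of CATTCC, whose reverse complement GGAATG is the core of sites bound by TEAD, the partner of the density-sensing coactivator YAP. On either strand 14.7% of all promoters in the table held these letters at least 1 time. Of the 9 genes, which had 11 promoters there, 3 did (Tagln2, Pfn1 and Arpc2, with 1 promoter each). No promoter window of Cfl1 or Tmsb10 held them. The 150 bases before the Tagln2 start lie at chr1:172500096-172500245 on the plus strand, with the copies in capitals, beginning 118 and 80 bases before the start.
Tagln2: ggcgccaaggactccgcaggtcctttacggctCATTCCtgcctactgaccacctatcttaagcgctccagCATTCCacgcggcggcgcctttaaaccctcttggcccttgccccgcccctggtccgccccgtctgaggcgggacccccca
Tagln2 rose in the paired fit, Pfn1 and Arpc2 did not pass, and the letters say nothing of what bound there.

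Tpm4, a tropomyosin of non-muscle cells that shields filaments from severing, was steady apart from 1 array. Its signals were 9390, 10434, 10217 and 10590 on confluent and 9718, 15084, 10179 and 11569 on subconfluent replicates 1 to 4. The groups overlapped, and subconfluent replicate 2 was the highest. The difference was 0.18 ± 0.15 (SE, limma adjusted p = 0.528; 0.320 in the paired fit), and 0.04 without that array.

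**Figure D3:**
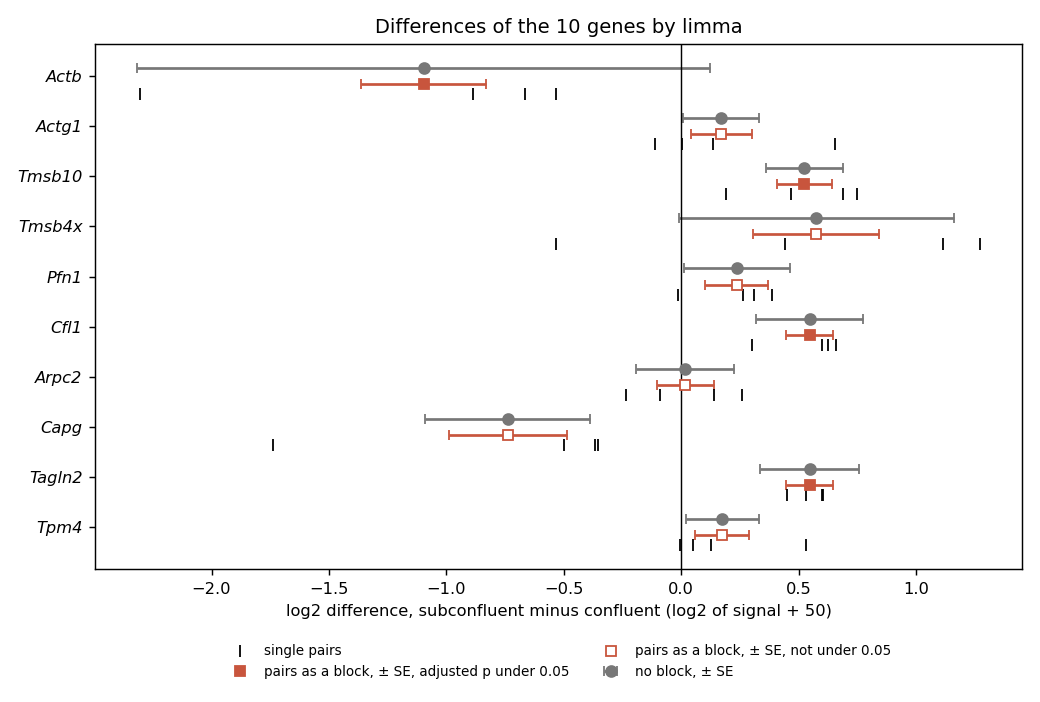
Log2 difference (subconfluent minus confluent, on log2 of signal + 50) of the 10 genes by limma without a block (grey circles) and in the paired fit (squares, filled where the adjusted p is under 0.05), bars being SE, and black ticks the 4 single pairs. The estimate is the same in both fits. For Actb the SE is 1.22 without and 0.27 with the pairs, and the ticks of Tagln2 lie closest together, from 0.45 to 0.60.

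Subconfluent replicate 2, the array with the highest scale factor, was the highest of the 8 for 5 of the 10 genes (Actg1, Tmsb10, Tmsb4x, Tagln2 and Tpm4), against 15.6% of all tested probe sets and 32.6% of 285 other probe sets averaging 5000 or more. Relative to the mean of the other subconfluent arrays its median deviation was 0.49 for the 10 genes, 0.17 for the bright probe sets and -0.04 for all tested ones (log2 scale). The bright probe sets are not matched to the 10 genes in signal. Actb, Tmsb4x, Pfn1 and Capg averaged 1688, 943, 508 and 257, under that minimum of 5000. The paired calls of Cfl1, Tagln2 and Tmsb10 held without pair 2 (limma adjusted p = 0.0171, 0.0122 and 0.0386), with differences of 0.53, 0.58 and 0.47.

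The genes fell into different patterns within the groups. For 5 of the 10 (Actb, Tmsb4x, Tagln2, Arpc2 and Pfn1) the 4 replicate numbers stood in the same order in both groups, as for 11.5% of all tested probe sets. After subtracting group means, Cfl1, Tagln2, Pfn1 and the gene probe sets of Actb varied together over the 8 arrays, with Pearson r between 0.84 and 0.93 between different genes. Arpc2 ran opposite to Cfl1 (r = -0.80) and Pfn1 (r = -0.77), and Tmsb10 went with Capg (r = 0.92). The arrays share pairs, scale factors and chip lots, so these coefficients are a description. The antisense controls of Actb went with Cfl1 (r = 0.81), Tagln2 (r = 0.90) and Pfn1 (r = 0.74). They also went with Tpm4 (r = 0.78) and Actg1 (r = 0.65), and least with Arpc2 (r = -0.39). The log2 scale factor went not only with Actb but with Actg1 (r = 0.80), Tmsb10 (r = 0.75), Capg (r = 0.66) and Tagln2 (r = 0.59). It was lowest for Arpc2 (r = 0.08). The part of the antisense signal and of the scale factor was not tested.

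Of 88 further genes of the actin system, 66 had a probe set and 50 reached the signal minimum. Without the pairing 1 of the 50 rose and 0 fell, against 2.75% and 4.06% of all tested probe sets. An unadjusted p under 0.05 was found for 15, as for 1558 of all 6007 tested probe sets. In the paired fit 8 rose and 2 fell, against 9.94% and 11.3% of all tested probe sets. The median log2 difference was 0.09, and 32 of 50 were positive, against 51.2% of all tested probe sets. These genes too were listed with earlier results of these data known, so the shares are a description.

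The gene that rose without the pairing was Coro1c, an actin-binding coronin listed with the genes around cofilin. Its signals were 817, 936, 665 and 756 on confluent and 1436, 1133, 1310 and 1464 on subconfluent replicates 1 to 4, with no overlap. The log2 difference was 0.72 ± 0.16 (SE, limma adjusted p = 0.0275; 0.0122 in the paired fit), and lot A gave 0.78 and lot C 1.00. Leaving out confluent replicate 3 or 4 or subconfluent replicate 1, 3 or 4 ended the call, with adjusted p between 0.0511 and 0.0743, and so did leaving out pair 3 (0.0651) or pair 4 (0.0621) in the paired fit.

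Among 8 tested genes around cofilin, Dstn, the cofilin relative destrin, also rose in the paired fit (0.67, limma adjusted p = 0.0275; 0.287 without a block). That call ended without pair 2 (0.0621), pair 3 (0.0766) or pair 4 (0.0937), and the unpaired difference of Dstn was 0.34 without subconfluent replicate 2. The actin-like Actr3, which forms the Arp2/3 core with its partner, was 1 of 5 branching genes and rose in that fit (0.55, adjusted p = 0.0128; 0.0992 without), a call that ended without pair 4 (0.0710). Of the formins and elongation factors 1 of 4 rose in it, Diaph3 (0.80, adjusted p = 0.0280; 0.0692 without), a formin that elongates unbranched filaments. The groups of Diaph3 did not overlap, while those of Dstn and Actr3 did. The call of Diaph3 held only without pair 4 (0.0384) and ended without pair 1 (0.0959), pair 2 (0.0567) or pair 3 (0.0740).

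Of 8 capping and severing genes Tmod3, a cap of the slow-growing filament end, rose in the paired fit (0.60, limma adjusted p = 0.0101; 0.135 without), a call that ended without pair 3 (0.0529). Add1, adducin, which caps the fast end and ties it to spectrin, fell (-0.68, adjusted p = 0.0350; 0.0842 without), with signals of 1749, 1133, 1109 and 1106 on confluent against 745.5, 523, 826 and 1029 on subconfluent arrays. The call of Add1 ended without pair 1 (0.140), pair 2 (0.0987) or pair 3 (0.0747). Its groups did not overlap, while those of Tmod3 did. The Tmod3 probe set has a name ending in f_at, so signal from related sequences cannot be told apart there.

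Of 6 side-binding genes Cnn3, a calponin, fell in the paired fit (-0.56, limma adjusted p = 0.0127; 0.0549 without) and Tagln, transgelin, rose in it (1.47, adjusted p = 0.0102; 0.108 without). The call of Cnn3 ended without pair 3 (0.0709) or pair 4 (0.0623), while that of Tagln held without each pair in turn. The groups of Cnn3 did not overlap, while those of Tagln did. Another calponin, Cnn2, stood at -0.07 and did not pass. The Cnn3 probe set has a name ending in f_at, so signal from related sequences cannot be told apart there.

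Acta2, smooth muscle alpha-actin, rose in the paired fit (1.14, limma adjusted p = 0.0172; 0.228 without), as 1 of 3 tested actin isoforms, on arrays that ranged from 595 to 1499 in confluent and from 656 to 5799 in subconfluent cells. Its call ended without pair 1 (0.0704) or pair 4 (0.0721), and the unpaired difference of Acta2 was 0.67 without subconfluent replicate 2. Acta2 and Tagln also mark smooth muscle cells, of whose 9 markers with a probe set 4 reached the minimum, while Myh11 and Itga8 lay under 50. The summed signal of that list was 3617 to 5577 on confluent and 2379 to 10756 on subconfluent arrays, 4 of the 9 are also in the actin list, and Mylk of the same list fell without a block (-1.84, limma adjusted p = 0.0163). The part of such cells was not tested.

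The MRTF gene Mrtfa, the coactivator that actin monomers restrain, rose in the paired fit (0.44, limma adjusted p = 0.0318; 0.0750 without). Its signals of 617, 623, 568 and 531 on confluent lay below the 866, 834.5, 827 and 722 on subconfluent replicates 1 to 4. Lot A gave 0.46 and lot C 0.41. The call of Mrtfa ended without pair 1 (0.0863), pair 3 (0.128) or pair 4 (0.105). In the groups with no call, Pfn2 (-0.61, limma adjusted p = 0.204) had the smallest p of 2 tested monomer binders and Marcks (-0.47, adjusted p = 0.148) that of 6 bundling genes.

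**Figure D4:**
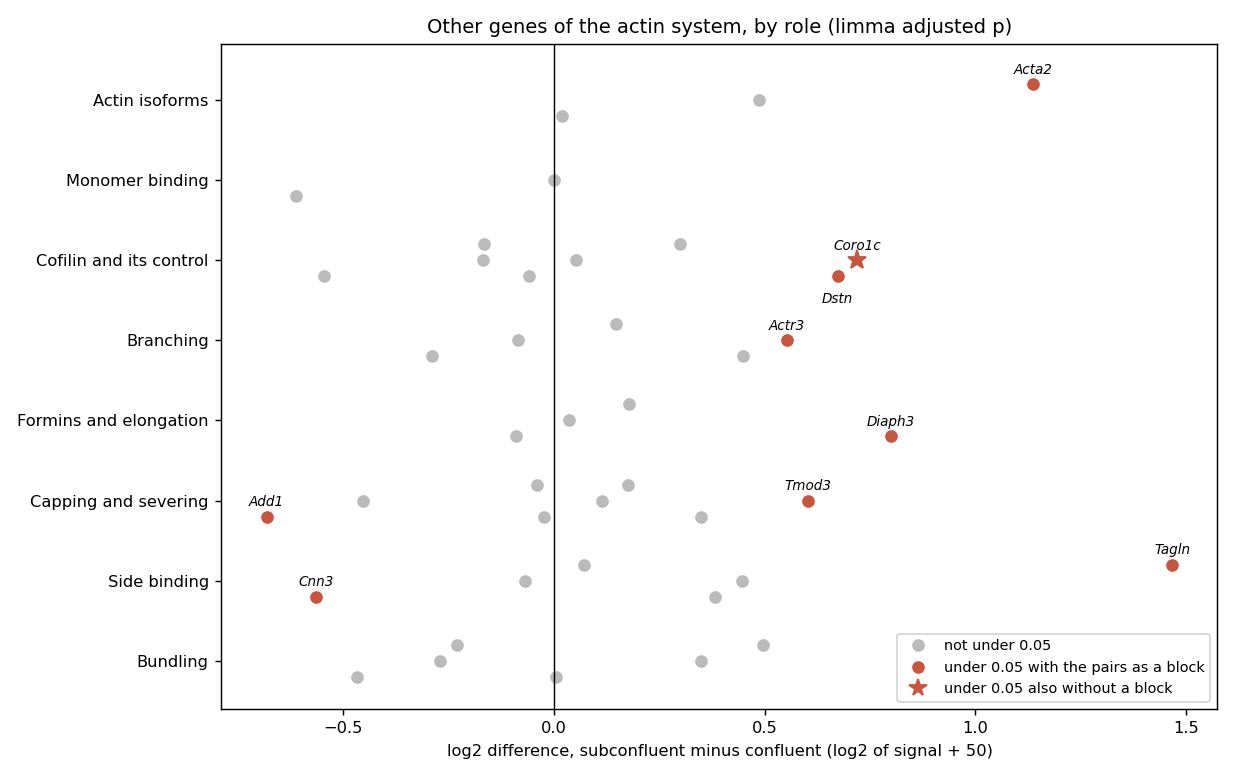
Log2 difference (subconfluent minus confluent, on log2 of signal + 50) of 42 tested genes of the actin system outside the 10, in 8 roles, 1 point per gene. Named red points passed limma's test in the paired fit (7 to the right of 0 and 2 to the left), the star (Coro1c) passed also without it, and grey points did not pass. Points are offset vertically for legibility.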

How the data were processed

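The deposited values are signals, linear and scaled by the authors on each array to a target of 500 with the Affymetrix statistical algorithm, per the labels; the software version was not given in the sources used here. No further normalization was applied. The 66 control probe sets were left out, and symbols came from the array's annotation (0 needed updating by gene identifier). The 6007 probe sets averaging 200 or more over 8 arrays were tested, and the brightest stood for a gene. Differences are of log2(signal + 50), which shrinks the folds of dim genes. The group difference, subconfluent minus confluent, was fitted with limma 3.58.1 under R 4.3.3 (variance trend, 6 residual degrees of freedom), two-sided, with Benjamini-Hochberg adjustment over all tested probe sets. The number of arrays limits the precision.

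Same-numbered arrays gave correlations of deviations from group means of 0.486, 0.357, 0.516 and 0.348 (highest with another number 0.0681), so same-numbered samples were treated as pairs, and a fit with the number as a block was run (3 residual degrees of freedom). Chip lot A held replicate 1 of both groups and lot C confluent replicate 3 and subconfluent replicates 3 and 4; other lots held 1 group each. Further alternatives were other pseudocounts, filters, scalings, lot as a fixed or random block, no trend, and leaving out arrays or pairs. On simulated data for this comparison with 6007 probe sets, 39 of 50 raised by 1 and 49 of 50 raised by 2 were recovered (log2 scale). Of those lowered, 37 of 50 changed by -1 and 48 of 50 changed by -2 were recovered, with 13 false calls in all. The simulated arrays were drawn independently and fitted without a block, so these counts do not bear on the paired fit. No change smaller than 1 was simulated.

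The members and lists were chosen with earlier results of these data known. The rule for named genes took all 10 members, every actin-system gene that passed with or without the block, and the smallest p in each role. Tables and plots used Python 3.11.15, pandas 2.3.3, numpy 2.4.6, scipy 1.17.1 and matplotlib 3.10.9.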

Additional observations from a re-analysis of the deposited data

Results flagged for a closer look

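In 3 of 52 groups of 4 signals (22 named genes, the second Actb probe set and 3 Actb controls) a single array lay so far from the other 3 that the gap passed Dixon's critical value; chance gives about 1 in 20. Subconfluent replicate 2 had an Actg1 signal of 27397, against 17271 to 18592 on the other subconfluent arrays, and a signal of 53774.5 for the 5′ control of Actb, against 25321 to 28040. Confluent replicate 1 had an Add1 signal of 1749, against 1106 to 1133 on the other confluent arrays.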

How the results depend on the processing

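Without a block 0 members passed in any direction under the other pseudocounts, filters and variance model, with median centring, within lot C, with lot as a fixed block, and without each array in turn; 1 rose with quantile normalization and 1 with lot as a random block (Tmsb10 both times). With the replicate block 3 rose and 1 fell, also with quantile normalization or median centring beside the block (both added after seeing the data), and 2 to 3 rose and 0 to 1 fell when a pair was left out. The block added calls for 13 of the 22 named genes and changed no other call among them. The members' median of 0.21 ran from 0.11 to 0.28 without single arrays and from 0.14 to 0.29 with the block without single pairs, and was 0.07 with lot as a fixed block. Of the actin-system genes 1 rose without a block (0 to 3 without single arrays), 3 with lot as a fixed and 4 as a random block, 0 within lot C, and 8 with the replicate block (8 also with quantile normalization or median centring; without a pair 5, 7, 4 and 3, leaving out pair 1 to 4). None fell without a block (0 to 1 without single arrays), 1 with a minimum of 500, 2 with lot as a random block, and 2 with the replicate block (4 with quantile normalization, 2 with median centring; without pair 1 to 4 1, 3, 0 and 1). Of all tested probe sets 165 were higher and 244 lower (18 to 342 and 80 to 345 without single arrays), 72 and 136 without a filter, 368 and 315 with lot as a fixed block, 453 and 485 as a random block, 2 and 3 within lot C, and 597 and 679 with the replicate block (594 and 657 with quantile normalization, 669 and 630 with median centring; without pair 1 to 4 258, 652, 223 and 237 higher and 353, 618, 367 and 413 lower). Signs turned for Actg1 with lot as a fixed block (-0.093) and within lot C (-0.17), for Pfn1 within lot C (-0.15), and for Arpc2 with quantile normalization (-0.021 without and with the block), within lot A (-0.24; lot C 0.30), without single arrays (-0.13 to 0.18) and with the block without pair 3 (-0.063) or pair 4 (-0.023). None of these values was called, and the cause was not tested.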

Other observations

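Several genes of the actin list lay under the signal minimum and were not tested. Dbn1, drebrin, which binds along filaments, had signals of 36.7 to 56.4 on confluent and 69.6 to 180.6 on subconfluent arrays, with no overlap, and Cnn1 had means of 79.5 (confluent) and 209 (subconfluent), with overlap. Both were named after their values were seen. Coronins did not share a direction: Coro1b stood at -0.54 (limma adjusted p = 0.191; 0.0509 in the paired fit) and was lower in 4 of 4 pairs, while Coro1c rose.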
